A study of Mus musculus with 25 samples.

Results

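Genes that mark touch and proprioceptive neurons of the dorsal root ganglion were followed across every group of a mouse study of surgically induced knee osteoarthritis. They were 8 in number, namely *Th*, *Slc17a8*, *Pvalb*, *Runx3*, *Etv1*, *Spp1*, *Cntnap2* and *Calb1*, known markers matched to the array by gene symbol. They were chosen with earlier results of these data known. On the array, 6 of the 8 had a probe set named for that gene alone, with 1 probe set each, out of 30142 genes named this way. The probe set of *Etv1* also carries the name of a pseudogene, *Gm5454*, so its values are given as a shared signal and were not tested. *Spp1*, which encodes the secreted glycoprotein osteopontin, is not analysed here.

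The study used 25 microarrays, each of RNA from the L3 to L5 ganglia, whose sensory neurons serve the hind limb. All mice were C57BL/6 males. Right knees were operated on at 10 weeks of age, either by destabilizing the medial meniscus (DMM), which leads to osteoarthritis, or with sham surgery, and naive mice had no operation. Ganglia were taken 4, 8 or 16 weeks later, at 14, 18 or 26 weeks of age, from DMM, sham and naive mice in parallel. Each of 8 groups held 3 arrays, and the sham group at 8 weeks held 1, because the other samples of that group failed the submitters' quality control. Neither the number of animals behind an array nor whether replicates are separate animals is stated in the labels, so p-values measure the spread between these samples.

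Touch and position sense are carried by several kinds of sensory neuron. Unmyelinated C-fibre low-threshold mechanoreceptors respond to gentle stroking of hairy skin and, in mouse, make tyrosine hydroxylase (*Th*) and the vesicular glutamate transporter VGLUT3 (*Slc17a8*). Proprioceptors innervate muscle spindles and tendon organs and carry the calcium-binding protein parvalbumin (*Pvalb*) together with the transcription factors *Runx3* and *Etv1*. Myelinated touch neurons of the skin include cells with calbindin (*Calb1*), and *Cntnap2* encodes Caspr2, a membrane protein that gathers potassium channels beside the nodes of myelinated axons. In whole ganglia, fewer neurons of a kind and less RNA per neuron cannot be told apart.

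Promoters are shown for a C-fibre touch marker, *Th*, and a proprioceptor marker, *Runx3*, both from windows that held a motif searched for. Each is the 250 bases before an annotated start, from RefSeq on build GRCm38.p6, read 5′ to 3′ on the strand of the gene. Capitals mark the motifs found. The *Th* window lies at chr7:142899996-142900245 on the minus strand, and the *Runx3* window at chr4:135120395-135120644 on the plus strand.
Th: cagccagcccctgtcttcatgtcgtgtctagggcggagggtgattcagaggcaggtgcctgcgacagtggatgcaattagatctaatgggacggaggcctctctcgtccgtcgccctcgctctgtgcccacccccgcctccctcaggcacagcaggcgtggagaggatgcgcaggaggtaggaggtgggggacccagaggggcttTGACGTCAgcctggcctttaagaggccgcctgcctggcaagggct
Runx3: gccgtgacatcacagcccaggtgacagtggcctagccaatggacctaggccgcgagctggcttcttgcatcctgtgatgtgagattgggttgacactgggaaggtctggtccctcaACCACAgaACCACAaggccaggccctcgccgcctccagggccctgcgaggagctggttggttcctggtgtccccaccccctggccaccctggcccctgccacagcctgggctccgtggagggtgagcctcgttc
The capitals of the *Th* window are a cyclic AMP response element (TGACGTCA), which begins 45 bases before the start and occurs in 1.55% of 32851 promoter windows of this length. The *Runx3* window holds the motif of the Runx family (TGTGGT, here on the other strand as ACCACA) at 134 and 126 bases before the start, a motif found in 14.05% of windows. Motifs were searched on both strands and none of these matches overlapped another. The other motifs searched were the TATA box (TATAAA, in 12.37% of windows) and a GT box (CCACACCC, in 3.2% of windows). Neither was in these 2 windows. *Runx3* has another annotated start, whose window at chr4:135152295-135152544 on the plus strand held no match and is not shown. The 13 windows available for 7 of the 8 genes held a match in 5. The other matches were a Runx motif and a TATA box in the 2 windows of *Etv1* and both of these motifs in 1 window of *Spp1*. No window of *Slc17a8*, *Pvalb* or *Cntnap2* held a match. A match is a description of the sequence only.

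All 6 genes were above the brightness limit of 4.52, on the log2 scale of the deposited intensities, over which 20260 genes were tested. Their signals lay above the medians of negative controls, from 5.06 to 5.35 by array. Values below are log2 intensities, listed by replicate within each group. Differences are log2 differences ± the standard error (SE), and adjusted p-values come from the limma fit over all 25 arrays with Benjamini-Hochberg adjustment over 20260 genes at a threshold of 0.05. As a check on the tissue, all 12 markers of sensory neurons in general were above the limit, against 3 of 10 spinal cord markers and 3 of 7 bone markers. The limit is below the negative control medians, so a gene above it is not thereby shown to be detected. A list of 12 genes induced by nerve injury averaged 8.88 to 9.06 on the 3 arrays labelled naive at 4 weeks. That was the highest mean among the groups of 3, although their labels give no operation. Single arrays elsewhere were about as high, with 9.12 on DMM replicate 2 at 8 weeks. DMM replicate 2 at 4 weeks had 8.93, and the lone sham array at 8 weeks had 8.83. Whether the samples labelled naive at 4 weeks match their labels was not tested. They are the baseline of every 16 against 4 week result in naive mice and of the comparisons with naive mice at 4 weeks. Values without them are therefore given for *Th*, *Calb1* and the C-fibre touch list.

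*Th*, the rate-limiting enzyme of catecholamine synthesis, was higher at 16 than at 4 weeks in naive and sham mice. At 4 weeks, *Th* stood at 13.55, 14.30 and 13.92 in DMM arrays, at 13.59, 14.08 and 13.41 in sham arrays and at 14.10, 13.73 and 13.16 in naive arrays. Values at 8 weeks were 14.33, 14.03 and 13.64 in DMM arrays, 13.91 in the lone sham array and 14.91, 14.21 and 14.64 in naive arrays. By 16 weeks the values were 14.12, 14.99 and 14.91 in DMM arrays, 15.20, 14.49 and 14.68 in sham arrays and 15.18, 15.11 and 15.05 in naive arrays. Every naive array at 8 weeks was above every naive array at 4 weeks, and every one at 16 weeks was above both. In sham mice the arrays at 16 weeks were all above those at 4 weeks, and in DMM mice the 2 times overlapped through 1 array of 14.12 at 16 weeks.

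Between 16 and 4 weeks *Th* differed by 0.75 ± 0.28 in DMM mice (1.68-fold, adjusted p = 0.151), which did not pass. In sham mice it rose by 1.09 ± 0.28 (2.14-fold, adjusted p = 0.0495). That call was lost in 10 of 14 settings, among them each of the 6 in which 1 sham array was left out, where adjusted p ran up to 0.191. In naive mice it rose by 1.45 ± 0.28 (2.73-fold, adjusted p = 0.00204), a call that held in all 13 alternative settings. In a fit of the 22 arrays that leaves out the arrays labelled naive at 4 weeks, naive mice at 16 against 8 weeks gave 0.53 ± 0.26 (adjusted p = 0.463), and the rise in sham mice no longer passed (1.09 ± 0.26, adjusted p = 0.0521). The difference in DMM mice was not shown to differ from that in naive or sham mice. The change of the DMM against naive difference from 4 to 16 weeks was -0.70 ± 0.39 (95% interval -1.53 to 0.12, adjusted p = 0.537), and the change against sham was -0.35 ± 0.39 (interval -1.17 to 0.48, adjusted p = 0.967).

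Other signals moved over the same interval in naive mice. The nerve injury list averaged 7.01 to 7.12 over naive arrays at 16 weeks, against 8.88 to 9.06 at 4 weeks, and 10 of the 12 were lower, among them the transcription factor *Atf3* (-2.44 ± 0.48, adjusted p = 0.00241) and *Sprr1a*, a gene of regenerating axons (-7.16 ± 1.54, adjusted p = 0.00413). The list averaged 6.93 to 7.29 in DMM arrays at 16 weeks against 7.38 to 8.93 at 4 weeks, and 6.99 to 7.18 in sham arrays at 16 weeks against 7.68 to 8.66 at 4 weeks. Macrophage markers averaged 6.71 to 6.77 in naive arrays at 16 weeks and 7.18 to 7.43 at 4 weeks, with 8 of 12 lower. Over all genes, 12.7% were called lower in naive mice between these times. The part of either list in the difference in *Th* was not tested. *Th* is also made by sympathetic neurons, and of their 8 other markers on the array 4 were above the limit. Of these, *Dbh*, dopamine beta-hydroxylase, averaged 4.54 at 16 weeks and 4.70 at 4 weeks in naive mice, both below the negative control medians. The mean of this list ran from 6.45 to 6.51 over naive arrays at 16 weeks and from 6.58 to 6.64 at 4 weeks, and its part was not tested. That mean is over the markers above the limit and, unlike *Dbh*, it lay above the negative control medians. The noradrenaline transporter *Slc6a2*, and the transcription factors *Hand1* and *Hand2*, were under the limit. Apart from *Dbh*, the sympathetic markers above the limit are not named here, and those named were chosen after their values were seen.

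**Figure D1:**
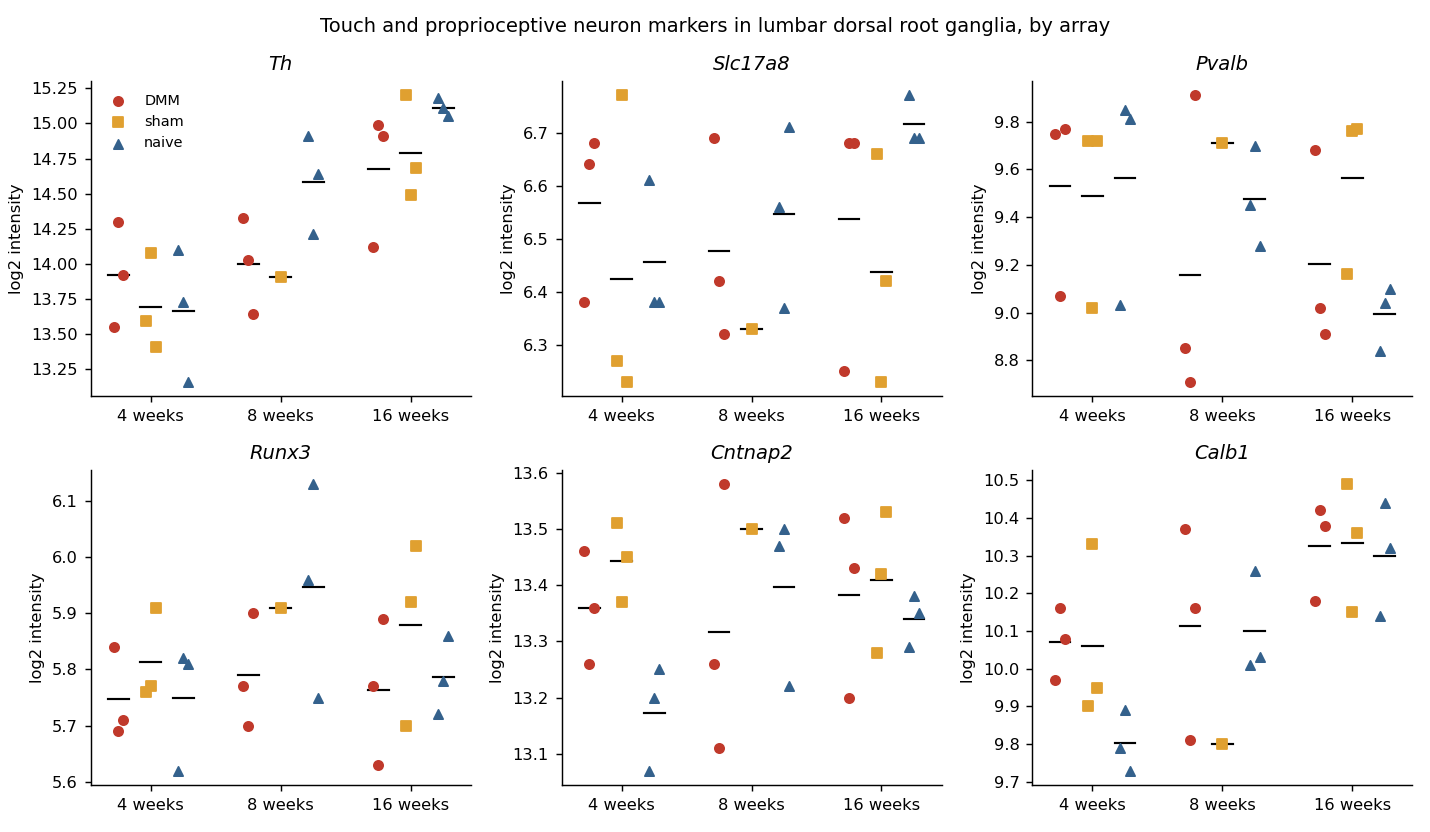
Log2 intensity of the 6 genes on each array (y axis) by weeks after surgery (x axis), with DMM as circles, sham as squares and naive as triangles, and a bar at each group mean. The mean of *Th* is highest at 16 weeks in all 3 treatments, and *Pvalb* has no array between 9.45 and 9.68.

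*Slc17a8*, the transporter that loads glutamate into vesicles of these touch neurons, showed no change that passed. Its signal was 6.38, 6.64 and 6.68 in DMM arrays at 4 weeks, 6.27, 6.77 and 6.23 in sham arrays and 6.61, 6.38 and 6.38 in naive arrays. At 8 weeks it was 6.69, 6.42 and 6.32 in DMM arrays, 6.33 in the sham array and 6.56, 6.37 and 6.71 in naive arrays. At 16 weeks it was 6.25, 6.68 and 6.68 in DMM arrays, 6.66, 6.23 and 6.42 in sham arrays and 6.77, 6.69 and 6.69 in naive arrays. The naive arrays at 16 weeks held a narrow band above both other treatments, while the DMM and sham arrays spread over more than 0.4. Between 16 and 4 weeks the difference was -0.03 ± 0.15 in DMM mice (adjusted p = 0.934), 0.02 ± 0.15 in sham mice (adjusted p = 0.975) and 0.26 ± 0.15 in naive mice (adjusted p = 0.240).

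Most of the wider list of C-fibre touch markers passed in naive mice. That list was chosen with earlier results of these data known, so its counts beside all genes are a description and no independent support. Of its 12 genes tested, *Th* and *Slc17a8* included, 7 were higher at 16 than at 4 weeks and none was lower. Differences were positive in 11, with a median of 0.53, beside a median of -0.07 over all genes. In that comparison 6.08% of all genes were called higher and 12.7% lower. Other neuron lists held calls there too: 3 of 10 nociceptor markers were higher and none lower, with a median of 0.03, and of 12 markers of sensory neurons in general 3 were higher and 2 lower, with a median of 0.04. Beside *Th*, the genes that rose were *Runx1*, a transcription factor of unmyelinated sensory neurons (0.93 ± 0.16, adjusted p = 0.00101), *Gfra2*, the receptor for neurturin (0.85 ± 0.15, adjusted p = 0.00136), the zinc finger gene *Zfp521* (0.63 ± 0.11, adjusted p = 0.00113), the nucleotide receptor *P2ry1* (0.64 ± 0.205, adjusted p = 0.0357), *Rarres1*, a retinoic acid responsive gene (0.60 ± 0.16, adjusted p = 0.0162), and the zinc finger gene *Bnc2* (0.40 ± 0.12, adjusted p = 0.0262). *Gfra2* averaged 15.79 ± 0.12 at 16 weeks and 14.94 ± 0.24 at 4 weeks in naive mice (SD, n = 3), and *Runx1* averaged 8.88 ± 0.16 and 7.95 ± 0.13 at the same times. The calls of *Runx1*, *Gfra2*, *Zfp521* and *Th* held when any 1 naive array was left out, and those of *P2ry1*, *Bnc2* and *Rarres1* were lost in 5, 4 and 3 of the 6 settings that leave 1 out. Without replicate 3 of the naive arrays at 4 weeks, 4 of the 12 were called. Between 16 and 8 weeks in naive mice, without the arrays at 4 weeks, limma called 0 of 12, and at an unadjusted p under 0.05 there was 1, beside 0.0247% and 11.5% of all genes, with 10 positive differences and a median of 0.17 beside 0.00 over all genes.

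The other C-fibre touch markers did not pass in naive mice. *Tafa4*, a secreted chemokine-like protein, differed by 0.46 ± 0.29 (adjusted p = 0.286), the T-type calcium channel *Cacna1h* by 0.31 ± 0.12 (adjusted p = 0.0757), the mechanically gated channel *Piezo2* by 0.26 ± 0.11 (adjusted p = 0.107) and the adenylate cyclase *Adcy5* by -0.02 ± 0.11 (adjusted p = 0.925). In sham mice 1 of the 12, *Th*, passed, and 6 had an unadjusted p under 0.05, beside 1.76% and 18.5% of all genes. There 9 differences were positive, with a median of 0.35 beside 0.01 over all genes. In DMM mice 0 of 12 passed in the limma fit and 4 had an unadjusted p under 0.05, beside 2.87% and 18.4% of all genes. Of these differences 8 were positive, with a median of 0.09 beside -0.02 over all genes. Without replicate 1 of the DMM arrays at 16 weeks, 2 of the 12 passed in DMM mice, and without replicate 3, 1 passed. For the change of the DMM against naive difference between these times, 0 of 12 passed, 4 had an unadjusted p under 0.05, beside 10.6% of all genes, and the median was -0.42, beside 0.04 over all genes. The naive arrays at 4 and 16 weeks enter both this change and the comparison of naive mice between those times.

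**Figure D2:**
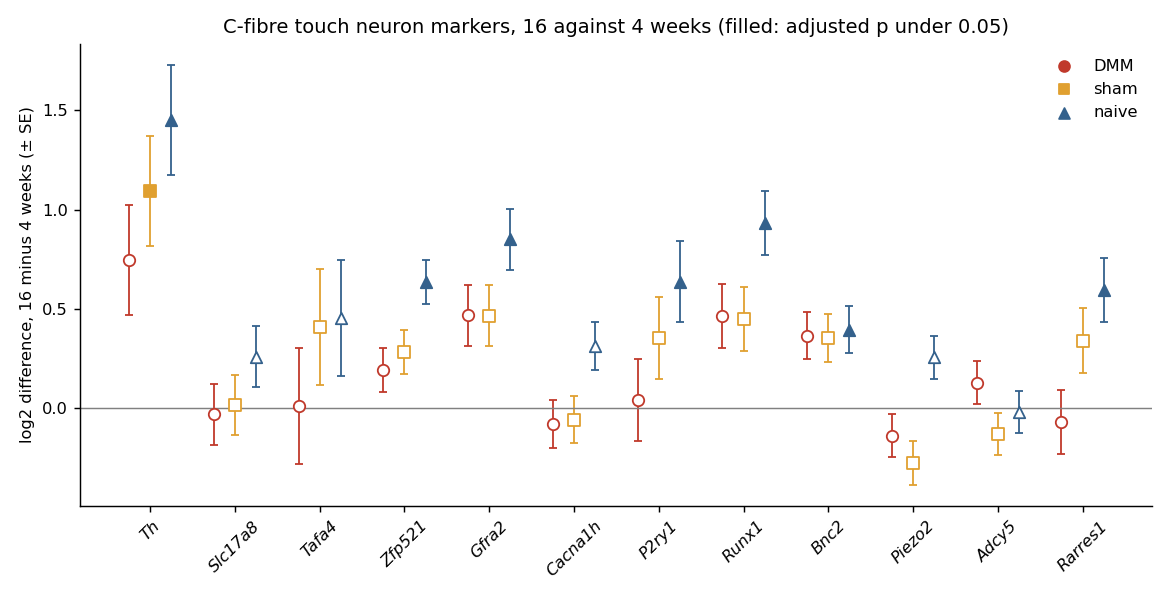
Log2 difference between 16 and 4 weeks (y axis, ± SE) for 12 C-fibre touch markers in DMM (circles), sham (squares) and naive mice (triangles), 3 arrays against 3 in each. Filled symbols have an adjusted p under 0.05 and are 7 genes in naive mice and *Th* in sham mice. The list was chosen with earlier results of these data known.

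Surgery gave no call in any of the 6 genes. Across DMM against naive, DMM against sham and sham against naive at each time, the averages over times and both changes over time, 0 of 6 passed in limma. At an unadjusted p under 0.05 there was 1 gene in DMM against naive at 8 weeks (*Th*), beside 8.49% of all genes, 1 in sham against naive at 4 weeks (*Cntnap2*), beside 15.9%, and 0 elsewhere, where 4.68% to 10.8% of all genes had one. Few genes passed anywhere. For DMM against naive 0.00987%, 0.0494% and 0.0148% of genes were called at 4, 8 and 16 weeks and 0.0444% over the 3 times. For DMM against sham the shares were 0%, 0% and 0.00494%, and 0.00987% over 4 and 16 weeks. For sham against naive they were 0.331%, 0.00987% and 0.00494%. For the changes between 4 and 16 weeks they were 0.00494% against naive and 0% against sham. These counts hung on single arrays: with 1 array left out, the 10 genes called for DMM against naive at 8 weeks became 4 to 120, the 3 at 16 weeks became 1 to 325, and the 67 for sham against naive at 4 weeks became 0 to 11.

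Over the 3 times *Th* differed between DMM and naive mice by -0.255 (SE 0.16, interval -0.59 to 0.08, adjusted p = 0.769). By time, the DMM against naive difference was 0.26 ± 0.28 at 4 weeks (adjusted p = 0.841), -0.59 ± 0.28 at 8 weeks (unadjusted p = 0.0484, adjusted p = 0.583) and -0.44 ± 0.28 at 16 weeks (adjusted p = 0.669). Averaged over 8 and 16 weeks, in the fit without the arrays labelled naive at 4 weeks, it was -0.51 ± 0.19 (unadjusted p = 0.013, adjusted p = 0.503). In that comparison 7.78% of all genes had an unadjusted p under 0.05. The average was added after the data were seen and leaves out the 4-week difference, which was positive. At 16 weeks all 3 DMM arrays were below all 3 naive arrays for *Th* and for *Slc17a8* (-0.18 ± 0.15, adjusted p = 0.759), 2 of 6 genes, beside 5.38% of all genes with such a separation. DMM and sham arrays overlapped there for both genes. Averaged over 4 and 16 weeks, DMM differed from sham by 0.06 ± 0.20 for *Th* (interval -0.35 to 0.47) and by 0.12 ± 0.11 for *Slc17a8* (interval -0.10 to 0.35), with adjusted p of 0.985 and 0.958. The naive level of *Slc17a8* at 16 weeks was also above every sham array (sham against naive -0.28 ± 0.15, adjusted p = 0.544), in a comparison where 5.44% of genes lay wholly below. Of the 12 C-fibre touch markers at 16 weeks, 0 passed in limma for DMM against naive (2 with an unadjusted p under 0.05, beside 8.81% of all genes), with 10 negative differences and a median of -0.28 beside 0.01 over all genes. For sham against naive 0 passed (0 with an unadjusted p under 0.05, beside 10.8% of all genes), with 12 negative differences and a median of -0.21 beside 0.02, and these comparisons share the naive arrays.

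*Pvalb*, the calcium buffer of proprioceptors, varied widely between arrays of a group. Its values at 4 weeks were 9.75, 9.07 and 9.77 in DMM arrays, 9.72, 9.02 and 9.72 in sham arrays and 9.03, 9.85 and 9.81 in naive arrays. The values at 8 weeks were 8.85, 8.71 and 9.91 in DMM arrays, 9.71 in the sham array and 9.45, 9.70 and 9.28 in naive arrays. Those at 16 weeks were 9.68, 9.02 and 8.91 in DMM arrays, 9.16, 9.76 and 9.77 in sham arrays and 8.84, 9.04 and 9.10 in naive arrays. At 4 weeks each treatment had 1 low and 2 high arrays, and at 16 weeks no naive array was high. Its DMM against naive difference over the 3 times was -0.05 ± 0.18 (interval -0.42 to 0.32, adjusted p = 0.976), and DMM against sham over 4 and 16 weeks gave -0.16 ± 0.22 (interval -0.61 to 0.29, adjusted p = 0.961).

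At 16 weeks sham arrays were all above naive arrays for *Pvalb* (0.57 ± 0.31, adjusted p = 0.532), 1 of 6 genes beside 12.2% of all genes. DMM against sham at that time was -0.37 ± 0.31 (adjusted p = 0.927), with overlap. Between 16 and 4 weeks *Pvalb* differed by -0.33 ± 0.31 in DMM mice, 0.08 ± 0.31 in sham mice and -0.57 ± 0.31 in naive mice, with adjusted p of 0.593, 0.927 and 0.200. Fast muscle also makes parvalbumin. Of 12 muscle markers 7 were above the limit, and the mean of these 7 ran between 5.09 and 5.78 over all arrays. It was highest on DMM replicate 2 at 8 weeks. The fast muscle genes *Mylpf* and *Tnni2* were under the limit in their mean over all arrays, at group means of 4.27 to 4.53 and 4.01 to 4.10. These 2 were chosen after their values were seen, and the 7 above the limit are not named here.

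*Runx3*, a transcription factor that proprioceptors need to form in mouse, showed no difference that passed. Values at 4 weeks were 5.84, 5.69 and 5.71 in DMM arrays, 5.76, 5.77 and 5.91 in sham arrays and 5.62, 5.82 and 5.81 in naive arrays. Those at 8 weeks were 5.77, 5.70 and 5.90 in DMM arrays, 5.91 in the sham array and 5.96, 6.13 and 5.75 in naive arrays. At 16 weeks *Runx3* gave 5.77, 5.63 and 5.89 in DMM arrays, 5.70, 5.92 and 6.02 in sham arrays and 5.72, 5.78 and 5.86 in naive arrays. The groups of 3 overlapped at each time, and the sham array at 8 weeks (5.91) lay just above the DMM arrays. DMM differed from naive by -0.06 ± 0.06 over the 3 times (interval -0.18 to 0.06, adjusted p = 0.849) and from sham by -0.09 ± 0.07 over 4 and 16 weeks (interval -0.24 to 0.06, adjusted p = 0.958). The largest of its differences at a single time against naive was -0.16 ± 0.10 at 8 weeks (adjusted p = 0.713), and between 16 and 4 weeks it differed by 0.02 for DMM, 0.07 for sham and 0.04 for naive animals, each with an SE of 0.10.

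The probe set shared by *Etv1*, an ETS factor of proprioceptors, and *Gm5454* ran from 11.25 to 12.27. At 4 weeks it read 11.51 to 11.91 in DMM arrays, 11.61 to 11.95 in sham arrays and 11.25 to 11.79 in naive arrays. At 16 weeks it read 11.71 to 12.01 in DMM arrays, 11.70 to 12.06 in sham arrays and 11.67 to 11.78 in naive arrays. Its highest value, 12.27, was on the DMM array at 8 weeks that also had the highest *Pvalb* value, 9.91. Which of the 2 transcripts gives the signal cannot be told apart.

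*Cntnap2*, the axonal protein Caspr2, showed no difference that passed. At 4 weeks *Cntnap2* stood at 13.46, 13.26 and 13.36 in DMM arrays, 13.51, 13.37 and 13.45 in sham arrays and 13.07, 13.20 and 13.25 in naive arrays. The values at 8 weeks were 13.26, 13.11 and 13.58 in DMM arrays, 13.50 in the sham array and 13.47, 13.50 and 13.22 in naive arrays. By 16 weeks they were 13.52, 13.20 and 13.43 in DMM arrays, 13.28, 13.42 and 13.53 in sham arrays and 13.29, 13.38 and 13.35 in naive arrays. The naive arrays at 4 weeks were the low ones, below all DMM and all sham arrays of that time. The differences at 4 weeks were 0.19 ± 0.11 for DMM against naive (adjusted p = 0.657) and 0.27 ± 0.11 for sham against naive (unadjusted p = 0.0223, adjusted p = 0.226).

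*Calb1*, the calcium buffer calbindin, was the other gene that changed with time. At 4 weeks *Calb1* stood at 9.97, 10.16 and 10.08 in DMM arrays, 9.90, 10.33 and 9.95 in sham arrays and 9.79, 9.89 and 9.73 in naive arrays. Its values at 8 weeks were 10.37, 9.81 and 10.16 in DMM arrays, 9.80 in the sham array and 10.01, 10.26 and 10.03 in naive arrays. At 16 weeks *Calb1* stood at 10.18, 10.42 and 10.38 in DMM arrays, 10.49, 10.15 and 10.36 in sham arrays and 10.14, 10.44 and 10.32 in naive arrays. The 3 treatments met at 16 weeks, and the naive arrays at 4 weeks were again below every DMM and sham array of that time. In naive mice *Calb1* rose by 0.50 ± 0.13 between 4 and 16 weeks (1.42-fold, adjusted p = 0.0140), a call lost without replicate 3 at 4 weeks (0.47, adjusted p = 0.0556) or replicate 2 at 16 weeks (0.43, adjusted p = 0.0592). At 16 against 8 weeks, without the arrays labelled naive at 4 weeks, it was 0.20 ± 0.14 (adjusted p = 0.634). Neither the 0.26 ± 0.13 of DMM mice (adjusted p = 0.317) nor the 0.27 ± 0.13 of sham mice (adjusted p = 0.287) passed.

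For *Calb1* the differences at 4 weeks were 0.27 ± 0.13 for DMM against naive (adjusted p = 0.580) and 0.26 ± 0.13 for sham against naive (adjusted p = 0.350). Together with *Cntnap2*, 2 of the 6 genes lay wholly above naive in each of these comparisons, beside 4.65% of all genes for DMM and 7.21% for sham, which share the same 3 naive arrays. Those arrays had the highest mean of the nerve injury list among the groups of 3, and the part of that list was not tested. Over the 3 times DMM differed from naive by 0.05 ± 0.06 for *Cntnap2* (interval -0.08 to 0.18, adjusted p = 0.905) and by 0.10 ± 0.08 for *Calb1* (interval -0.06 to 0.27, adjusted p = 0.812). Over 4 and 16 weeks DMM differed from sham by -0.06 ± 0.08 for *Cntnap2* (interval -0.22 to 0.10, adjusted p = 0.961) and by 0.00 ± 0.10 for *Calb1* (interval -0.20 to 0.20, adjusted p = 0.998). DMM and sham arrays overlapped for all 6 genes at 4 and at 16 weeks, where 11.6% and 11% of all genes did not overlap, and so did DMM and naive arrays at 8 weeks, where 10.2% did not.

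Between 16 and 4 weeks, 0 of the 6 genes passed in DMM mice in limma, where 2.87% of all genes passed, and 1 of the 6 (*Th*) had an unadjusted p under 0.05, beside 18.4% of genes. In sham mice 1 passed (*Th*), where 1.76% of genes passed, and in naive mice 2 passed (*Th* and *Calb1*, both higher), where 18.8% passed. Without the arrays labelled naive at 4 weeks, 0 of 6 passed in limma in sham mice, where 1.04% of genes passed, and 0 for naive mice at 16 against 8 weeks, where 0.0247% passed, with 1 (*Th*) and 0 at an unadjusted p under 0.05. In naive mice 4 of 6 genes had every array at 16 weeks above every array at 4 weeks, beside 12.8% of all genes, namely *Th*, *Slc17a8*, *Cntnap2* and *Calb1*. In sham mice this held for *Th* alone (15.2% of genes) and in DMM mice for *Calb1* alone (9.04% of genes). The difference of *Cntnap2* between 16 and 4 weeks was 0.02 ± 0.11 in DMM mice, -0.03 ± 0.11 in sham mice and 0.17 ± 0.11 in naive mice (adjusted p = 0.295), and in naive mice it passed after quantile normalization (0.34, adjusted p = 0.0362).

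**Figure D3:**
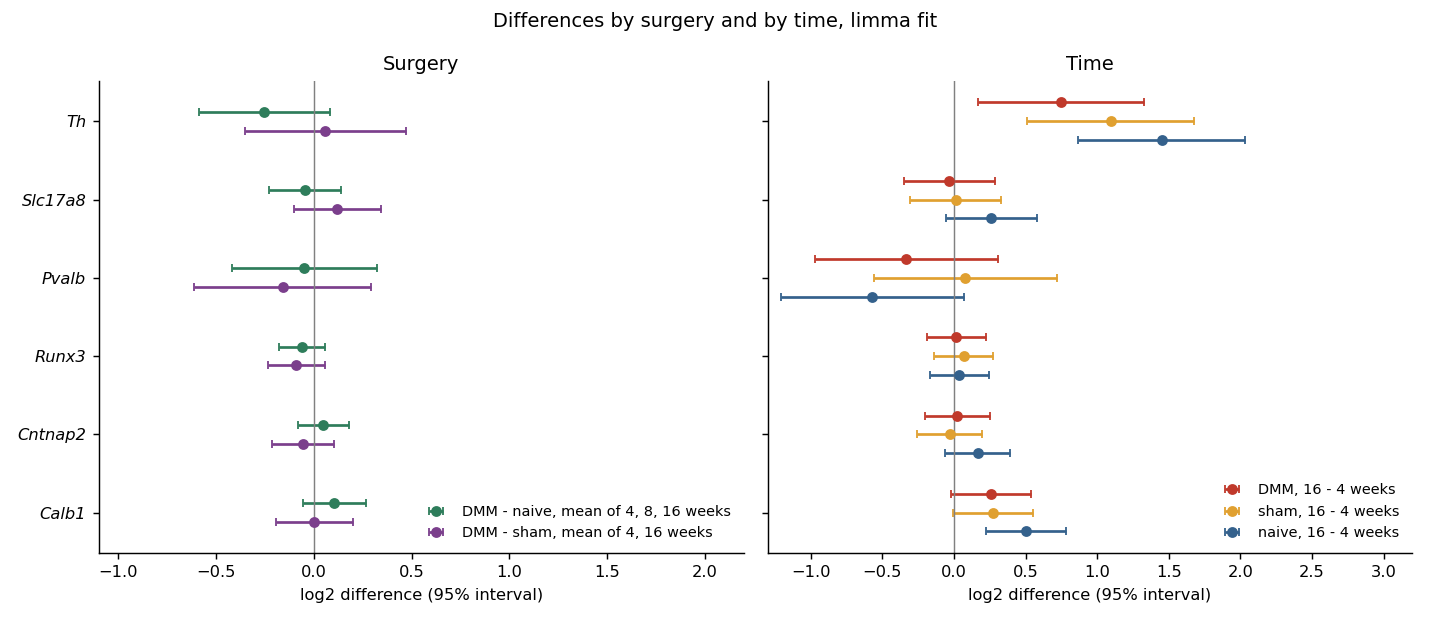
Log2 differences (x axis, with 95% intervals) of the 6 genes in the limma fit, for DMM minus naive and DMM minus sham on the left and 16 minus 4 weeks within DMM, sham and naive mice on the right. Intervals of the surgery differences averaged over times all span 0, and *Th* has the largest differences with time, from 0.75 in DMM mice to 1.45 in naive mice.

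A few markers of proprioceptors and myelinated touch neurons passed between 4 and 16 weeks in naive mice, where 6.08% of all genes were called higher and 12.7% lower. Of 11 proprioceptor markers tested 1 rose, the acid-sensing channel *Asic2* (0.44 ± 0.11, adjusted p = 0.00834), and the list had a median of -0.05 beside -0.07 over all genes. The neurotrophin-3 receptor *Ntrk3* differed by 0.42 ± 0.19 (adjusted p = 0.121). Of 13 markers of myelinated touch neurons, *Calb1* rose and *Gfra1*, a receptor for the growth factor GDNF, fell by 0.34 (SE 0.12, adjusted p = 0.0482), a call lost in 9 of 13 settings, with a list median of 0.16. None of 12 genes of large myelinated neurons passed and 2 had an unadjusted p under 0.05, beside 33.2% of all genes, the heavy neurofilament *Nefh* (-0.26 ± 0.12, adjusted p = 0.130) and the potassium channel *Kcna2* (0.31 ± 0.11, adjusted p = 0.0541). None of these 3 lists, nor the C-fibre touch list, had a gene that passed for DMM against naive over the 3 times, with medians of -0.03, 0.02, 0.03 and -0.08 beside -0.01 over all genes.

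Between arrays of one group, *Pvalb* and the C-fibre touch markers ran in opposite directions. Relations were computed as deviations from group means over the 24 arrays of the groups of 3. *Th* had r = -0.83 with *Pvalb* (rho -0.817, permutation p = 0.00041, adjusted p = 0.0015, -0.822 without the 2 arrays farthest from the median of the gene named first). *Slc17a8* had r = -0.776 with *Pvalb* (rho -0.757, permutation p = 0.0007, adjusted p = 0.0021, -0.726 without them). *Th* and *Slc17a8* ran together (r = 0.858, rho 0.868, permutation p = 0.00015, adjusted p = 0.0011, 0.86 without them), and so did *Pvalb* and *Cntnap2* (r = 0.827, rho 0.743, permutation p = 0.00011, adjusted p = 0.0011, 0.771 without them) and *Runx3* and *Cntnap2* (r = 0.796, rho 0.805, permutation p = 0.00031, adjusted p = 0.0015, 0.748 without them). Of 15 pairs 11 passed, and the p-values come from permutation within groups with adjustment over the 15. *Calb1* passed with *Slc17a8* alone (r = 0.565, rho 0.534, permutation p = 0.032, adjusted p = 0.044, and 0.051 by rank). In 6 of the 8 groups the array lowest for *Pvalb* was the highest for *Slc17a8*, and in 3 of the 8 the array highest for *Pvalb* was the lowest for *Slc17a8*. For *Th* these counts were 5 and 4.

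Markers of other neurons moved with the same deviations, and their part in these relations was not tested. *Pvalb* had r = -0.901 with the mean of the nociceptor markers (rho -0.891, permutation p = 3e-05, adjusted p = 0.00063, -0.887 without the 2 farthest arrays) and -0.748 with that of sensory neurons in general (rho -0.725, permutation p = 0.003, adjusted p = 0.025, -0.701 without them). The nociceptor mean also passed with *Cntnap2* (r = -0.698, rho -0.643, permutation p = 0.0039, adjusted p = 0.027), *Slc17a8* (r = 0.678, rho 0.677, permutation p = 0.0056, adjusted p = 0.029) and *Th* (r = 0.672, rho 0.677, permutation p = 0.0087, adjusted p = 0.036). The mean of large myelinated neuron genes passed with every marker but *Calb1*, from r = -0.671 for *Th* to r = 0.943 for *Cntnap2* (rho -0.706 and 0.942, permutation p = 0.0075 and 1e-05, adjusted p = 0.035 and 0.00042). Of 42 relations with 7 list means, which leave out the 6 genes, 10 passed, all of them with these 3 lists and none with the muscle, macrophage, sympathetic or nerve injury lists.

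Ordered by *Pvalb*, the 25 arrays left their widest gap, of 0.23, between 9.45 and 9.68, with 12 arrays above it (9.68 to 9.91) and 13 below (8.71 to 9.45), and no test was made of whether these are separate sets. Above the gap lay 2 DMM, 2 sham and 2 naive arrays at 4 weeks, 1 DMM array, the sham array and 1 naive array at 8 weeks, and 1 DMM, 2 sham and 0 naive arrays at 16 weeks. No label names a batch that matches this division. Relations were computed again on each side, over log2 values of all times with adjustment over 54 relations. These values keep the differences between groups and times. Of 30 relations between genes 2 passed. They were *Runx3* with *Cntnap2* below the gap (r = 0.853, rho 0.852, permutation p = 0.00019, adjusted p = 0.0084, and 0.016 by rank) and *Th* with *Calb1* above it (r = 0.787, rho 0.72, permutation p = 0.0024, adjusted p = 0.033, but 0.16 by rank). As deviations from group means over 24 arrays, *Th* and *Calb1* had r = 0.443 (rho 0.414, permutation p = 0.057, adjusted p = 0.071). Of 24 relations with list means 2 passed, *Cntnap2* and *Runx3* with the large myelinated genes below the gap (r = 0.861 and 0.814, rho 0.731 and 0.681, permutation p = 0.00031 and 0.00076, adjusted p = 0.0084 and 0.014, but 0.16 by rank for both). Division by *Pvalb* narrows its own range on each side and can narrow that of genes that ran with or against it. Relations within a side, passed or not, therefore do not test those over all arrays. The 30 and 24 relations include those of *Pvalb*, which are not read here.

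**Figure D4:**
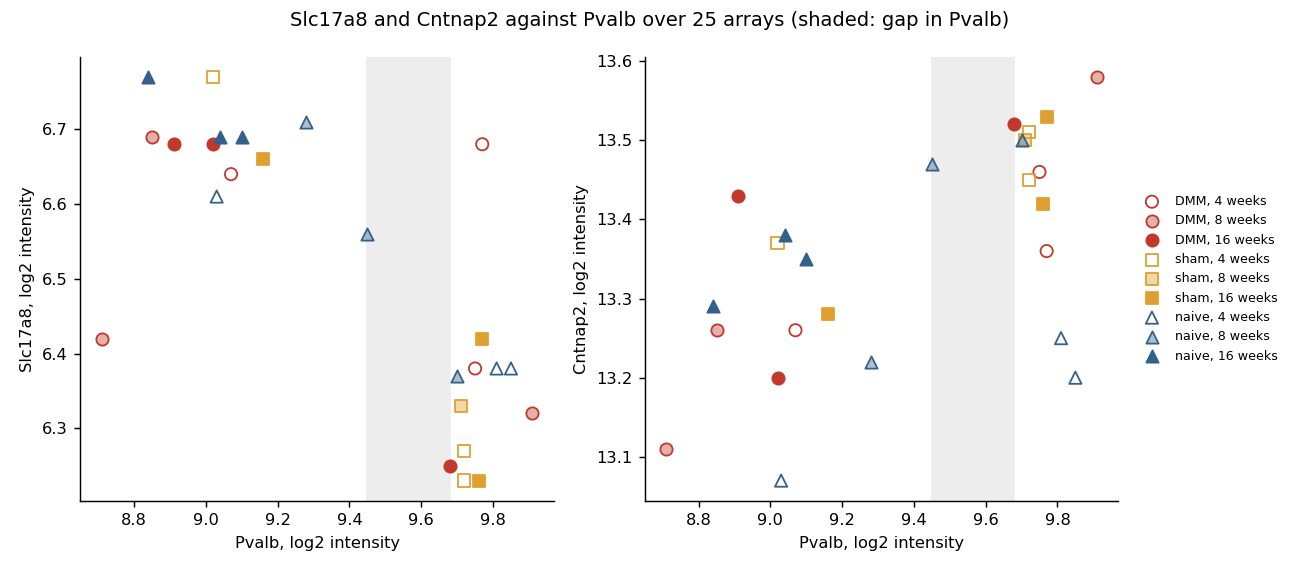
*Slc17a8* (left) and *Cntnap2* (right) against *Pvalb* on each of 25 arrays, in log2 intensity on both axes, with shapes for DMM, sham and naive and darker filling for later weeks. The shaded band is the gap in *Pvalb* between 9.45 and 9.68, and DMM, sham and naive arrays lie on both sides.

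The genes whose pattern over the 25 arrays was most like that of each marker are given as a description, with Pearson's r, from arrays that share groups and sets. For *Th* they were *Deaf1* (0.94), *Pld5* (0.91) and *Stx3* (0.91), and for *Slc17a8* they were *Esyt3* (0.83), *Myo1a* (0.83) and *Abca5* (0.81). *Pvalb* was followed by *Gabrg1* (0.93), *Cdh12* (0.93) and *Clrn1* (0.92). The nearest to *Runx3* were *Kndc1* (0.77), *Chgb* (0.77) and *Stk24* (0.77), those to *Cntnap2* were *Rgs6* (0.89), *Smad9* (0.88) and *Lgi3* (0.88), and those to *Calb1* were *Nxpe2* (0.85), *Ntng1* (0.85) and *Resp18* (0.85).

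The genes differed in how much of their variation lay between groups. The 9 groups held 74.8% of the variation of *Th* over arrays and 62.2% of that of *Calb1*, against 35.6% for *Cntnap2*, 31.8% for *Runx3*, 29.9% for *Pvalb* and 26.4% for *Slc17a8*. The residual SD within groups was 0.37 for *Th* and 0.41 for *Pvalb*, larger than in 98.2% and 98.8% of all genes tested, and between 0.12 and 0.20 for the other 4. Ordered by mean, the groups ran for *Th* from the 16-week groups at the top (DMM 14.67, sham 14.79 and naive 15.11) to naive mice at 4 weeks at the bottom (13.66). Of the 8 steps between neighbours in that order, 1 was larger than the residual SD, between DMM mice and naive mice at 8 weeks (14.00 and 14.59). For *Calb1* 2 of 8 steps were larger than the residual SD, for *Cntnap2* 1, and for *Slc17a8*, *Pvalb* and *Runx3* none.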

How the data were processed

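The deposited values are log2 intensities, 1 per probe set, a scale read from the values themselves (2.23 to 19.7). How the authors summarised and normalized them, and with what software, was not given in the sources used here. Array medians ran from 4.94 to 5.03. Of 65956 transcript probe sets, 30604 carried 1 gene symbol, 2146 several and 33206 none in the platform annotation, and 827 symbols were updated. The probe set of highest mean stood for each gene, and genes under the 40th percentile (4.52) were left out. limma 3.58.1 (R 4.3.3) fitted 1 mean per group, with 16 residual and 3.28 prior degrees of freedom, which lends the single sham array of 8 weeks the spread of the other groups. Tests were two-sided with Benjamini-Hochberg adjustment, and the fit was tested on simulated data. Correlations used 100000 permutations (NumPy 2.4.6), within groups for deviations and freely on each side of the gap in Pvalb. The members and 15 gene lists were chosen with earlier results of these data known. Genes were named as members, as the 3 most alike per member, or as up to 4 per list, those past the threshold first and then those of smallest p for DMM against naive over the 3 times. The remaining C-fibre touch, sympathetic, muscle, Ntrk3, Nefh and Kcna2 values were chosen after they were seen. The number of arrays limits the precision. Over 21 pairs of equal replicate number, deviations correlated between -0.359 and 0.318, and 8 pairs were over 0.1, 7 of them among the 9 pairs at 16 weeks. Every pair was over 0.1 for sham and naive mice at 16 weeks (0.108, 0.224 and 0.308), which is a hint from the data, since no label ties the numbers to a shared animal or day, and no other comparison had this.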

Additional observations from a re-analysis of the deposited data

How the results depend on the processing

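Alternatives were no filter or a stricter one, quantile and cyclic loess normalization, an intensity trend, a replicate block, a fit limited to the 2 groups compared, and leaving out single arrays. For 16 against 4 weeks in sham mice, the count of the 6 markers called was 1, and it was 0 with no filter, 0 with the replicate block (Th adjusted p = 0.0652), 0 with only the arrays compared, 0 without the arrays labelled naive at 4 weeks, an alternative chosen after seeing the data, and 0 to 0 with 1 array left out. In naive mice the count was 2, and 1 to 2 with 1 array left out. No surgery comparison had a call to lose. Among averages over times that did not pass, signs turned with 1 array left out for Th in DMM against sham (-0.036 to 0.196), Slc17a8 in DMM against naive (-0.082 to 0.002), Pvalb in DMM against naive (-0.174 to 0.028) and Calb1 in DMM against sham (-0.044 to 0.069, and -0.003 after quantile normalization). The correlation of Slc17a8 and Pvalb, -0.776 as deviations from group means, was 0.205 above and 0.08 below the gap in Pvalb (rho 0.455 and -0.159), also chosen after seeing the data. That alternative narrows the range of Pvalb and uses log2 values in place of deviations, so it is no test of the relation. For sham against naive at 16 weeks, where equal replicate numbers correlated, the replicate block with only the arrays compared called 0 of the 6 (Pvalb 0.57, adjusted p = 0.0712). The other causes were not tested. Over all 20260 genes, calls for 16 against 4 weeks in naive mice numbered 3811, and 2164 to 3083 with 1 array left out. In sham mice they numbered 357, against 7 to 268, and in DMM mice 582, against 9 to 771. The other probe sets of a gene gave no alternative, since each marker had 1.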
